A study of Drosophila melanogaster with 4 samples.

Results

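The sloppy paired genes slp1 and slp2 lie next to each other on the left arm of chromosome 2 of Drosophila melanogaster, and the sequence around them was examined for H3K4me1, histone H3 carrying a single methyl group on lysine 4. The members are the H3K4me1-enriched regions that overlap the stretch from the first base of slp1 to the last base of slp2 plus 20 kb on each side. That window runs from 3805675 to 3859185 on 2L and measures 53511 bp. It held 15 regions of the 23221 in the 3 deposited lists, namely 5 of the 7601 listed for replicate 1, 8 of the 7401 listed for replicate 2 and 2 of the 8219 on the combined list. The chromatin came from whole wild-type embryos of the Oregon-R strain (Oregon-R-modENCODE), aged 14 to 16 h and fixed with formaldehyde. The antibody was ab8895, from what the labels call new lot 2. The study has 2 ChIP libraries and 2 inputs, all of this strain, genotype and age, so it has no contrast of conditions, and the inputs were not analysed here.

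Both slp genes encode transcription factors with a forkhead DNA-binding domain of the FoxG class. They act as segmentation genes in the early embryo, where they repress engrailed and keep wingless active in alternating stripes of cells, and they serve again later in the head, the mesoderm and the nervous system. The pair arose by duplication, the proteins act in part in place of one another, and many partly redundant enhancers are known to be spread along the locus. H3K4me1 is the mark laid down at enhancers and beside active promoters by the methyltransferases of the COMPASS family, in flies mainly Trr. It can sit on enhancers that are active and on enhancers that are only primed. The lists therefore show which sequence carried the mark in the embryo as a whole. How many cells carried it and how much each cell carried cannot be told apart in whole embryos.

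Each list gives the first and last base of every enriched region and the authors' own score. Sequencing depth is unknown, and the precision it gives could not be stated. Scores behaved as log2 values up to a constant that was not estimated and may differ between lists. Differences between scores within a list are therefore log2 differences. The labels do not say whether the replicates came from separate embryo collections, and the spread between them may be technical. The experiment number attached to both lists is that of the library labelled replicate 1, so the assignment of lists to replicates rests on the repository's record. Gene positions come from RefSeq on release 6 and regions from FlyBase release 5, 2 releases whose positions on 2L were taken to agree. Of 4 genes on 2L for which the RefSeq table also keeps a release 5 position, 4 overlapped it. Their starts differed by 1 to 628 bp and their ends by 53 to 3282 bp. The gene of these that lies inside the slp window, CR45449, differed by 1 bp at its start and by 108 bp at its end. Distances from gene ends given below assume that positions agree. The regions were chosen by their presence here, so their values are a description and no test was made on them.

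The slp genes lay together inside a single broad H3K4me1 region in every list. Slp1 covers 3825675 to 3827099 (1425 bp) and slp2 covers 3836840 to 3839185 (2346 bp). In replicate 1 the region that held them ran from 3811767 to 3839470, a width of 27704 bp, with a score of 1.43. In replicate 2 it ran from 3817290 to 3839450, a width of 22161 bp, with a score of 1.55. The mean width was 24.9 ± 3.92 kb (SD, n = 2). The 9740 bp between the genes, from 3827100 to 3836839, held no annotated gene and was covered to 100% in both replicates, as were the bodies of slp1 and slp2. No list had separate regions at slp1 and at slp2.

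**Figure D1:**
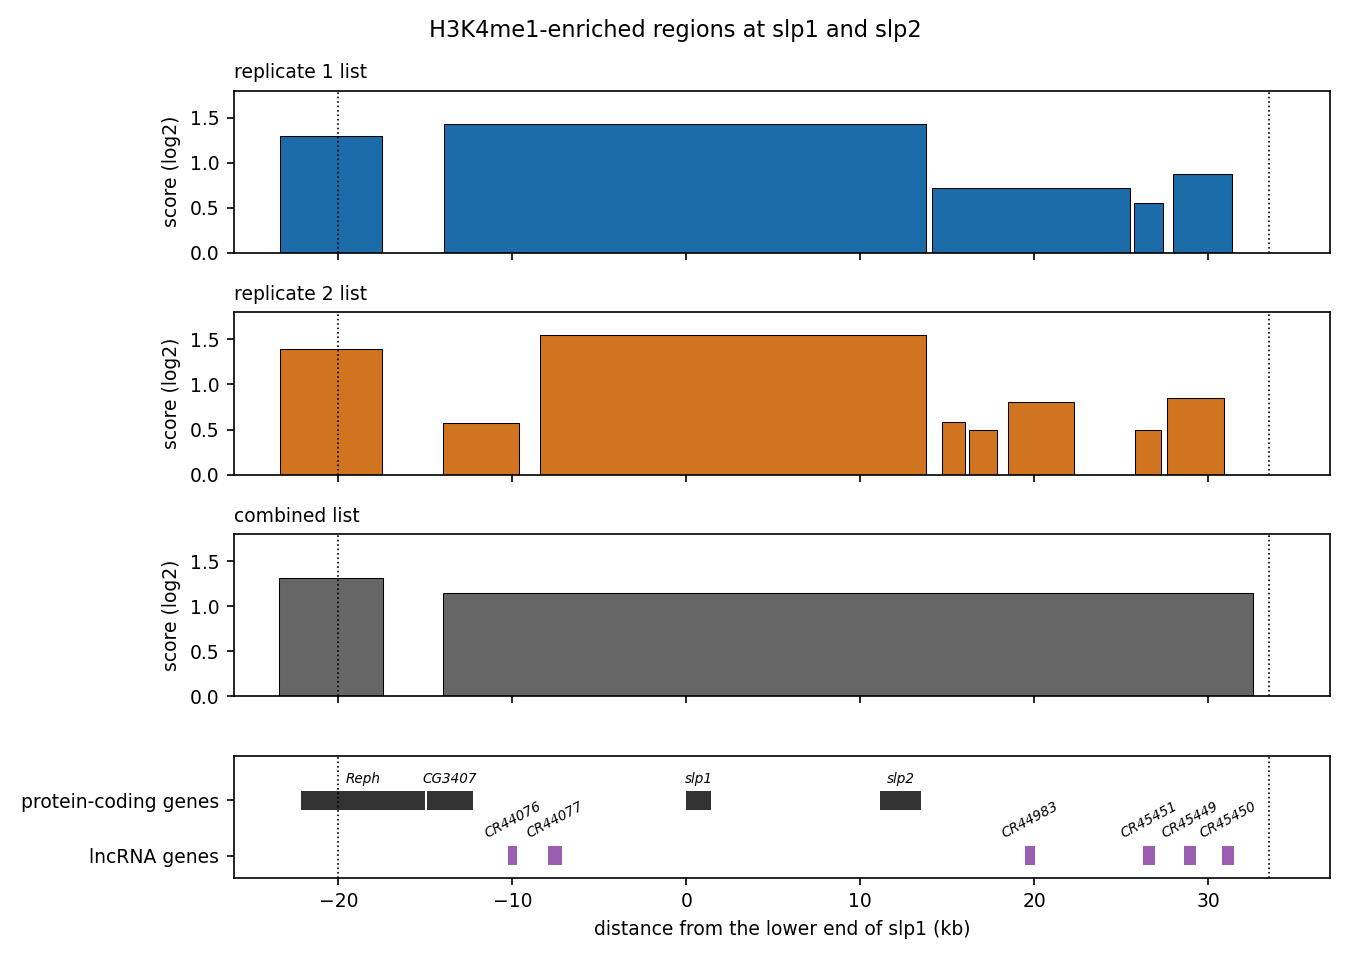
Regions at slp1 and slp2 in the 3 lists (bar width: region, bar height: score in log2 units) over the annotated genes, against distance from the lower end of slp1 in kb; dotted lines mark the window. In both replicates the tallest bar spans slp1 and slp2 and stops just past slp2, and lower bars follow.

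The upper end of this broad region was nearly the same in both libraries. It stood 285 bp past the last base of slp2 in replicate 1 and 265 bp past it in replicate 2, 20 bp apart. An unlisted gap of 317 bp followed in replicate 1 and of 914 bp in replicate 2. Past the gap the scores were lower. In replicate 1 the 3 regions from 3839788 to 3857063 scored 0.72, 0.55 and 0.87. In replicate 2 the 5 regions from 3840365 to 3856578 scored 0.58, 0.49, 0.80, 0.49 and 0.85. Each of these 8 regions was below the broad region of its list, by 0.56 to 0.88 in replicate 1 (1.47-fold to 1.84-fold) and by 0.70 to 1.06 in replicate 2 (1.63-fold to 2.09-fold). Most regions of 2L are below it as well, since the broad region ranked 48 of 1366 by score in replicate 1 and 14 of 1312 in replicate 2. The count of 8 is therefore not remarkable in itself. A drop at the end of slp2 was present in both replicates, and how unusual it is was not tested. The regions are those of the authors' caller, and no read profile was used here to place the drop more finely.

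The 20 kb past slp2 hold no protein-coding gene, and their lower regions coincided in part with annotated lncRNA genes. CR44983 (3845130 to 3845716) lay wholly inside the regions scored 0.72 and 0.80, CR45451 (3851951 to 3852604) inside those scored 0.55 and 0.49, and CR45449 (3854288 to 3854994) inside those scored 0.87 and 0.85, replicate 1 first. CR45450 (3856478 to 3857172) lay across the end of the last region, with 84.3% of its length covered in replicate 1 and 14.5% in replicate 2. No function is stated here for these RNAs. With lncRNA genes over only 13.2% of the 20 kb, most of the marked sequence there was intergenic. Regions covered 83.8% of these 20 kb in replicate 1 and 59.1% in replicate 2. Whether lncRNA genes lay in regions more often than other sequence there was not tested.

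Towards lower positions the replicates differed in where the broad region began. In replicate 1 it reached 13.9 kb below slp1 and in replicate 2 it reached 8.39 kb, a difference of 5523 bp. Replicate 2 had a region of its own in the remaining stretch, from 3811686 to 3816082, with a score of 0.57, and an unlisted gap of 1207 bp separated it from the broad region. The outer edges of the marked stretch were 81 bp apart. The libraries therefore marked nearly the same sequence and parted over whether it was 1 region or several. The score of 1.43 in replicate 1 covers this stretch as well, and the score of 1.55 in replicate 2 does not, so these scores describe different lengths of sequence. CR44077 (3817724 to 3818534) lay inside the broad region in both replicates. CR44076 (3815438 to 3815948) lay inside it in replicate 1 and inside the region scored 0.57 in replicate 2.

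The marked stretch around slp1 and slp2 stopped inside CG3407 (3810801 to 3813410), which was covered to 63.0% in replicate 1 and to 66.1% in replicate 2. An unlisted gap of 3607 bp in replicate 1 and of 3499 bp in replicate 2 followed, and the combined list left 3435 bp unlisted at the same place. On its far side stood a region over Reph, a gene named as a regulator of eph expression. That region ran from 3802305 to 3808159 with a score of 1.29 in replicate 1, and from 3802344 to 3808186 with a score of 1.39 in replicate 2. It is the member that crosses the edge of the window. The other list held 99.3% of its length in replicate 1 and 99.5% in replicate 2. The next regions outside the window lay 12.6 kb away on that side in replicate 1 and 12.7 kb away in replicate 2, with scores of 0.98 and 1.17. On the side of slp2 they lay 0.555 kb and 0.857 kb outside it, with scores of 0.77 and 0.70.

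The replicates were most alike over the genes and least alike past slp2. In the whole window 85.2% of the sequence listed in either replicate was listed in both, against 83.3% over all of 2L. The share was 100% over slp1, slp2 and the sequence between them, 92.0% in the 20 kb below slp1 and 67.0% in the 20 kb past slp2. Of the 6.96 kb listed in only 1 replicate, 5.64 kb lay past slp2, and 5.28 kb of that was listed in replicate 1 only. The longest gap in replicate 2 there, from 3847998 to 3851488 (3491 bp), held a gap of 260 bp in replicate 1. The 3 gaps of replicate 1 within the marked stretch each met a gap of replicate 2, and 3 of the 6 gaps of replicate 2 met a gap of replicate 1. The breaks at the end of slp2 and on both sides of CR45451 thus recurred in both libraries. In the broad region the score of replicate 2 exceeded that of replicate 1 by 0.12. Over 1001 regions of 2L matched one to one, the median difference was -0.0079, with quartiles at -0.089 and 0.074. The broad region is not among these pairs, because that of replicate 1 also overlaps the region scored 0.57 in replicate 2. The difference of 0.12 is thus between scores of unlike stretches and cannot be ranked against the pairs.

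The combined list, made by the authors from the same libraries, bridged every break between CG3407 and the last region past slp2, and kept the gap towards Reph. A single region ran from 3811689 to 3858241 with a width of 46553 bp and a score of 1.15, and another from 3802258 to 3808253 with a score of 1.31. Its score for the broad stretch was below those of the replicates, 1.43 and 1.55, and above every score past slp2. Each list thus held both genes in 1 region, while the width of that region depended on the list. Lists may carry separate constants, which were not estimated, so scores of different lists can be compared only roughly.

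Regions covered 87.2% of the window in replicate 1 and 75.9% in replicate 2, a mean of 81.6% ± 7.96 (SD, n = 2). The combined list covered 91.8%. Windows of the same length were laid end to end along 2L. Among these 430 windows the mean covered share had a median of 22.6% and a maximum of 89.9%, and the slp window would take rank 5. Taken list by list it would take rank 2 for replicate 1, rank 7 for replicate 2 and rank 3 for the combined regions. With regions at or above the median score of their list only, the covered share was 57.5% and the rank 25, so the high rank rests in part on regions of lower score. The difference between its replicates, 11.3 percentage points, was large for the arm. Over the 430 windows the median of replicate 1 minus replicate 2, with its sign kept, was 0.959 points. Replicate 1 was higher in 276 windows and replicate 2 in 76. A difference at least as large as that of slp was found in 15 windows.

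**Figure D2:**
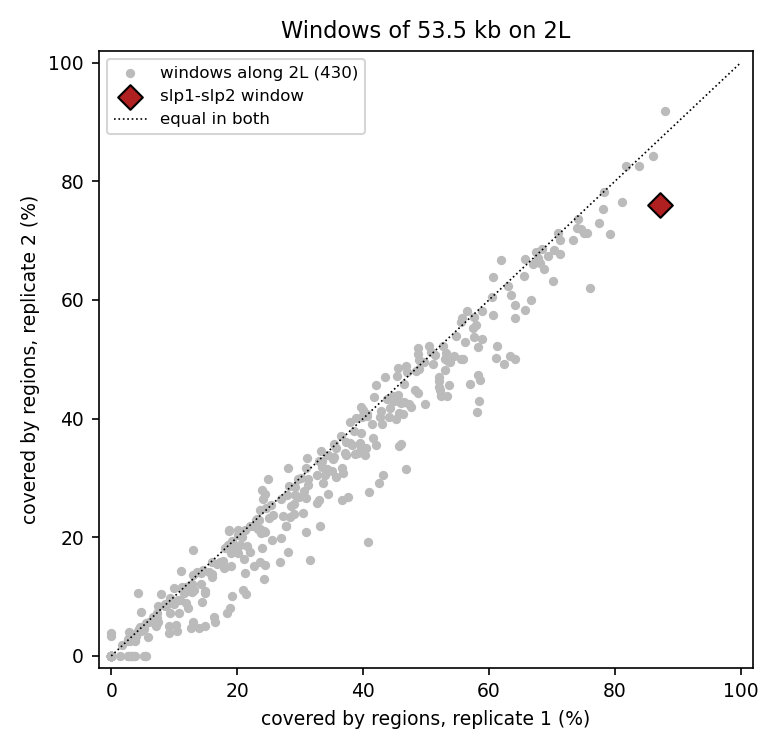
Covered share in replicate 2 against replicate 1 (both in %) for 430 windows along 2L (grey) and for the slp1-slp2 window (red). The slp window lies at 87.2% and 75.9%, near the top of both axes and below the line of equality.

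On 2L the broad slp region ranked higher by width than by score in each list. It ranked 4 by width and 48 by score of 1366 regions in replicate 1, and 9 by width and 14 by score of 1312 in replicate 2. In the combined list it was the widest of 1485 and ranked 161 by score. No other region of replicate 1 was both as wide and as high, and 1 other was in replicate 2. Among regions of at least 20 kb on 2L, which number 20 in replicate 1 and 16 in replicate 2, its score ranked 8 and 3. The median score of those regions was 1.36 and 1.37, and that of all 2L regions was 0.75 and 0.78. In the combined list it ranked 18 by score among 28 regions of at least 20 kb, with 1.15 beside a median of 1.26. The other members lay inside the main cloud of regions. The region of 11381 bp past slp2 in replicate 1 was low for its width, ranking 86 by width and 740 by score.

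**Figure D3:**
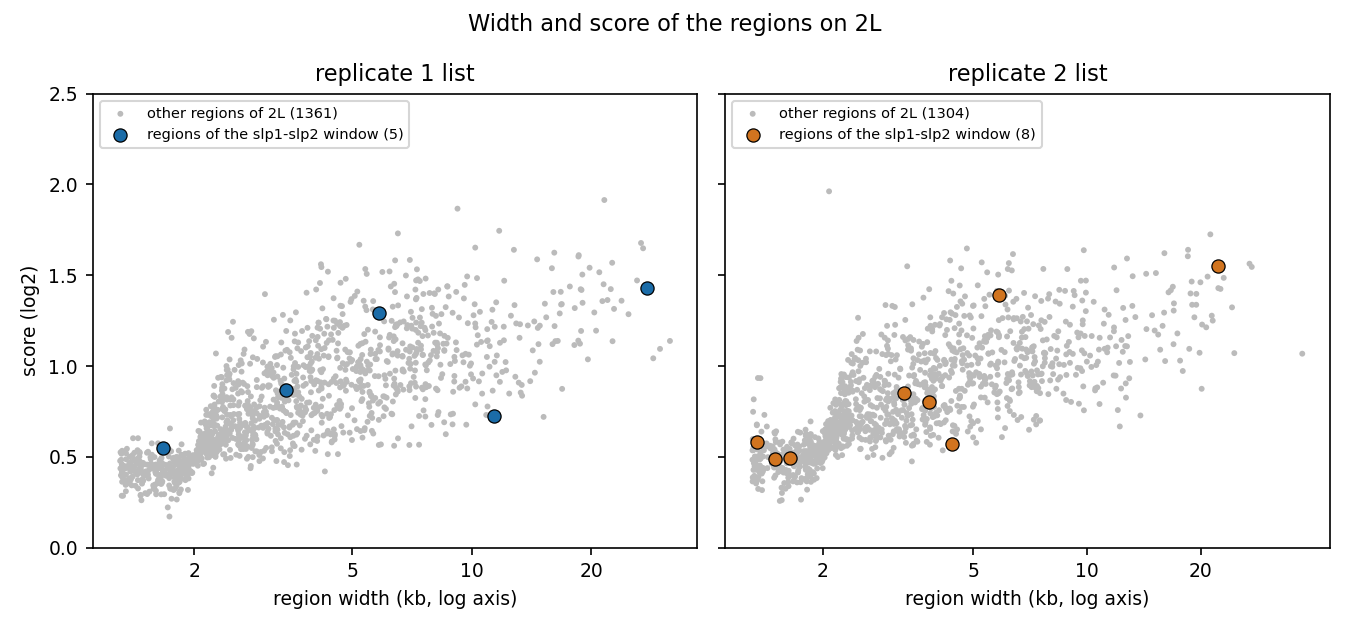
Score (log2) against width (kb, log axis) for all regions of 2L in each replicate list, with those of the slp1-slp2 window in colour. The rightmost coloured point in each panel is the region over slp1 and slp2, at 27.7 kb and 1.43 in replicate 1 and at 22.2 kb and 1.55 in replicate 2.

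Little of the broad slp region was annotated as gene. Protein-coding genes took up 19.5% of it in replicate 1 and 17.0% in replicate 2. Each gene was counted from its first to its last base, introns included. These are shares of gene span and not of coding sequence. The median for regions of at least 20 kb on 2L was 92.9% and 84.9%. In replicate 1, 2 of the 20 such regions lay in protein-coding genes over less than 50% of their length and 13 over more than 80%. In replicate 2 these counts were 2 and 9 of 16. The slp region was the lowest of the 16 in replicate 2 and second lowest in replicate 1, where the lowest, with 2.53%, overlapped chinmo. Slp1 and slp2 are short, and most of the marked sequence around them lay outside annotated genes, with lncRNA genes included still only 24.3% and 20.7% of the region. These shares describe the sequence, and no test of a difference was made.

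Contact with a listed region was common among genes, and full cover was less so. Of the 3496 RefSeq genes of 2L, 51.1% had at least 1 base in a region of both replicates, and of the 2652 protein-coding genes 56.8% had. Slp1 and slp2 were among them. Full cover in both replicates was found for 18.9% of the protein-coding genes, and for 30.6% of the 1475 that are no longer than slp2. Slp1 and slp2 were both fully covered, which for genes of their length is a property of 451 genes. Lying whole inside a single region of at least 20 kb in both replicates was less usual. This held for slp1, slp2 and 15 others among the protein-coding genes, or 0.641% in all, and for 0.881% of those no longer than slp2. The limit of 20 kb was chosen with the widths known, and the region of replicate 2 exceeds it by little.

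All of the other 8 genes with a base in the window touched a region in both replicates, beside the 51.1% of all 2L genes. Of these, 5 were fully covered in both replicates, namely the lncRNA genes CR44076, CR44077, CR44983, CR45451 and CR45449, beside 20% of all 2L genes. The 8 genes were short, with a median of 701 bp against 1486 bp for all 2L genes, and the part of length was not tested. The 3 genes covered in part were CR45450, CG3407 and Reph. Reph was covered to 64.8% in replicate 1 and 65.1% in replicate 2. The genes share the sequence of a few regions and are not independent of each other. They lie in a window covered to 87.2% in replicate 1 and 75.9% in replicate 2. Their counts largely restate that cover.

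A list of 24 patterning regulators on 2L was taken as the wider setting of the pair, among them the pair-rule genes odd and prd, the Wnt genes with wg, which slp acts on, and dpp, the BMP ligand gene. At least 1 base in a region of both replicates was found for 23 of the 24, or 95.8%, beside 56.8% of protein-coding genes. The exception was Wnt10, which touched no region in any list. The genes of this list were long, with a median of 12360 bp against 1986 bp for protein-coding genes of 2L, and the part of length in this count was not tested. Their median covered share, as the mean of both replicates, was 70.4% beside 26.0% for protein-coding genes. Full cover in both replicates held for 2 of the 24, prd and esg, or 8.33% beside 18.9%. Prd, a pair-rule gene like slp1 and slp2, lay in regions of 6.33 kb with a score of 1.33 and 6.08 kb with a score of 1.34. Esg, a Snail-type zinc-finger gene, lay in regions of 6.87 kb with 1.38 and 5.51 kb with 1.39. None of the 24 lay whole inside 1 region of at least 20 kb in both replicates. The nearest were eya, a retinal determination gene covered to 96.9% and 99.0% by regions of 23.8 kb and 24.2 kb, and spi, an EGF-receptor ligand gene covered to 98.2% and 100% by regions of 22.0 kb and 22.5 kb. For wg the main region measured 16.2 kb with a score of 1.14 in replicate 1 and 12.8 kb with 1.16 in replicate 2, and it covered 79.0% and 79.9% of the gene.

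Around each slp gene the mark was followed in 500 bp steps to 10 kb on either side of the middle of the gene. Around slp1, 100% of the 20 kb was covered in replicate 1 and 95.5% in replicate 2. Around slp2 these values were 98.4% and 91.1%. The mean over the 2652 protein-coding genes of 2L was 36.1% for both replicates together. The profile of slp1 was flat, with its only unlisted steps at the far end in replicate 2. The profile of slp2 was flat on the side of slp1 and broken on the other side. Both replicates fell at 1.75 kb from its middle, to 44.8% in replicate 1 and to 0% in replicate 2. Further breaks, centred at 3.75 kb and 5.75 kb, were present in replicate 2 only.

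**Figure D4:**
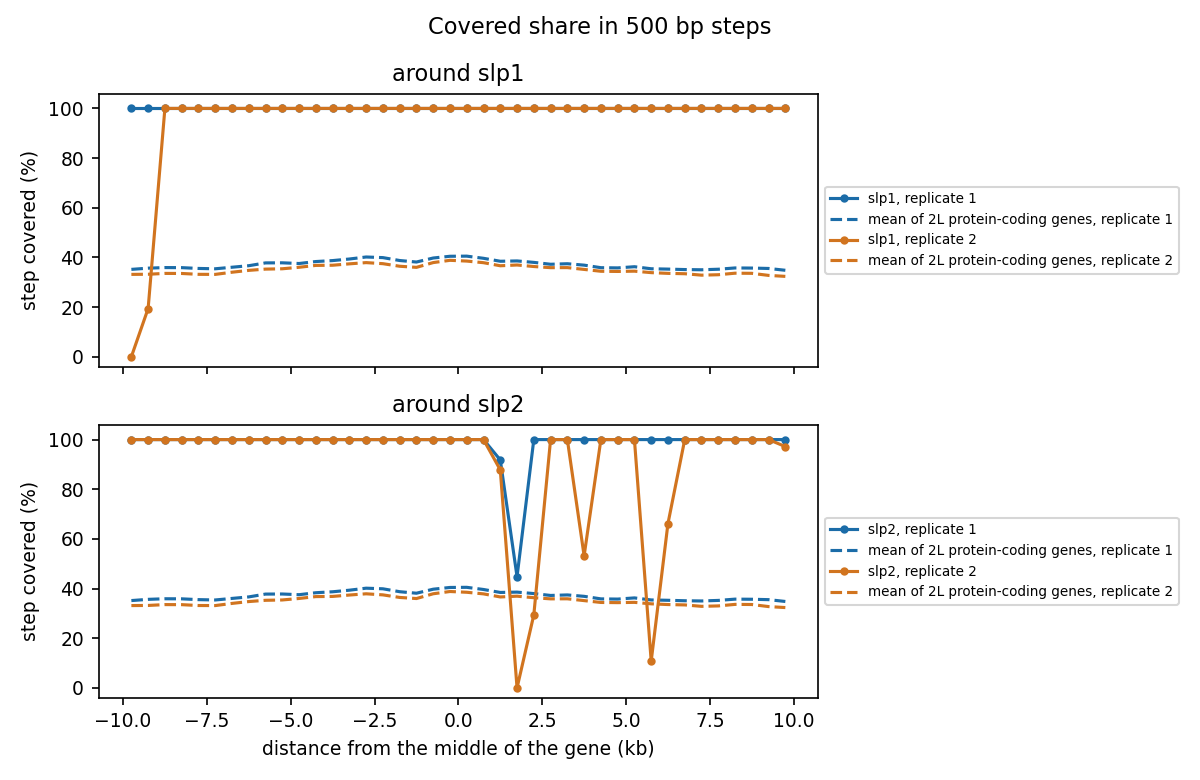
Share of each 500 bp step that is covered (%) against distance from the middle of slp1 or slp2 (kb), for each replicate (points and lines), with the mean of 2652 protein-coding genes of 2L (dashed). Slp1 stays at 100% but for the lower end in replicate 2, and slp2 drops at 1.75 kb in both replicates.

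The genes with the most similar profiles were sought over 40 steps in 2 replicates, as the mean absolute difference in covered share, among protein-coding genes of 2L more than 50 kb from the pair. For slp1 these were crp, a bHLH transcription factor gene, at 2.08 percentage points, CycE, the cyclin of S-phase entry, at 2.16, and Traf4, a signalling adaptor gene, at 2.25. The replicates of slp1 differed from each other by 4.52 points. That value is no yardstick for likeness, because any gene fully covered in both replicates falls below it. For slp2 they were Ada1-1, a gene of the SAGA coactivator complex, at 5.10 points, and vri, a bZIP transcription factor gene, and msb1l at 5.24 points each. The replicates of slp2 differed by 7.30 points, and there too any fully covered gene falls below, such as vri and msb1l with 100% in both replicates. The likeness reflects near-complete cover over 20 kb, and the median gene was 64.6 points from slp1 and 62.9 from slp2.

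The slp window was set beside those of 3 other groups of related developmental regulators on 2L, each taken with the same 20 kb on each side. The odd-skipped genes odd, sob and drm encode zinc-finger proteins, mid and H15 encode T-box factors, and nub and pdm2 encode POU factors. Covered shares were 66.7% ± 0.356 for odd, sob and drm, 36.1% ± 6.15 for mid and H15 and 28.9% ± 0.909 for nub and pdm2, against 81.6% ± 7.96 for slp (SD, n = 2). The windows differ in length, from 53.5 kb for slp to 107.5 kb, 103.3 kb and 138.7 kb. Shares of closely spaced genes are therefore taken over less distant sequence, and no test between loci was made. With the flanks of slp alone widened to 40 kb, a window of 93.5 kb, its mean covered share was 65.1%. That is below the 66.7% of odd, sob and drm, taken over 107.5 kb with flanks of 20 kb. The share of slp thus depends on the window, and the other loci were not measured with flanks of 40 kb. In the combined list the shares were 91.8% for slp, 78.9% for odd, sob and drm, 49.7% for mid and H15 and 36.6% for nub and pdm2.

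The layout of the regions differed too. In the odd window the widest region measured 16.9 kb in replicate 1 and 16.4 kb in replicate 2, with scores of 1.34 and 1.41, and odd lay at its lower end. Drm and sob lay in other regions, and drm had one of 16.1 kb and 16.0 kb. For mid the widest region measured 14.4 kb and 10.6 kb with scores of 0.96 and 1.01, and H15 was touched by other, shorter regions that covered 40.3% of it in replicate 1 and 13.0% in replicate 2. In the nub window it measured 12.9 kb and 12.6 kb, with scores of 1.23 and 1.11, and covered part of nub only. In these lists slp1 and slp2 alone of the 4 groups had all of their genes inside 1 region. They are also the closest together, with 9.74 kb between them. The genes of each other group extend over more sequence than any listed region of 2L. The widest measured 31.6 kb in replicate 1, 37.1 kb in replicate 2 and 46.6 kb in the combined list. The outcome for the other groups was thus fixed by gene spacing and says nothing about their H3K4me1. The sequence listed in both replicates came to 89.1% of that listed in either for odd, sob and drm, 62.3% for mid and H15, 91.4% for nub and pdm2 and 85.2% for slp.

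**Figure D5:**
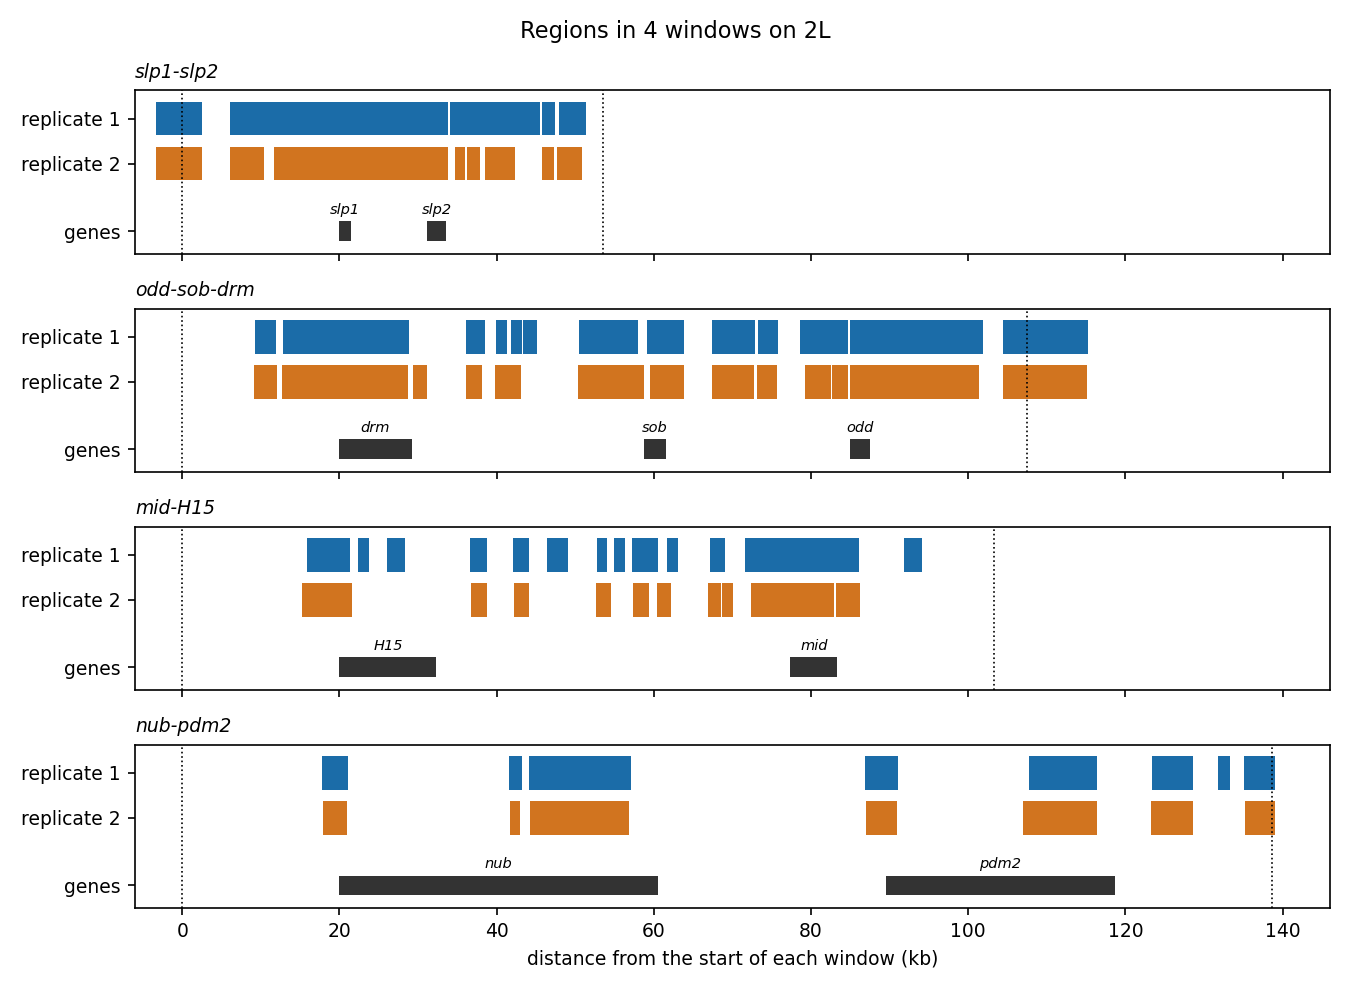
Regions of both replicate lists (coloured bars) and the genes (dark bars) in the 4 windows, against distance from the start of each window in kb; dotted lines mark window ends. Slp1 and slp2 share 1 region, while the genes of the other groups are touched by separate regions. None of those genes is fully covered in both replicates, and H15, nub and pdm2 are covered least.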

How the data were processed

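ChIP and input libraries of whole embryos were made by the submitters. The authors deposited regions of significant enrichment on FlyBase release 5 per the file headers, with a score per region whose scale they do not state. Bowtie 0.12.7 is named in the submitters' processing notes. Not given in the sources used here are the caller, its threshold, the role of the inputs and the depth, so the precision depth gives is unknown. The deposited scores were taken as log2 values: among the 500 next-shortest regions of a list, 487, 344 and 349 scores (replicate 1, replicate 2, combined) differed from that of the shortest by the base 2 logarithm of a ratio of whole numbers (denominators up to 20000, relative tolerance 2e-13), and 0 did in base e or 10. One record of the combined list named as depleted was left out.

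Replicate numbers come from the sample titles. Python 3.11.15 and numpy 2.4.6 were used. Overlap means at least 1 bp. Covered share is the share of bases inside a region. Values of both replicates are given as mean ± SD, and the combined list is the authors' own. No test was made, since the design has 1 group and the regions were chosen from the readout. The members and lists were chosen with earlier results of these data known. Named genes are slp1, slp2, the other genes of the window, the list of 24 genes and the 3 genes of most similar profile for each slp gene, at most 1 per combined region. The gene table has no strand, so the planned count of gene starts was replaced by a count of genes with any base in a region, and profiles were centred on the middle of genes and follow the direction of the arm. Eya, spi and chinmo were singled out after their values were seen. Overlap, joining and gap steps were tested on simulated lists.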

Additional observations from a re-analysis of the deposited data

How the results depend on the processing

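Of 33 alternative values, 15 moved by less than the spread between replicates or, for counts and ranks, by at most 1.5 times, and 18 moved by more. The covered shares in a single replicate are among the 15, but that outcome was fixed in advance. With 2 replicates, each value always lies within the SD of their mean. The covered share of the window, 81.6%, was 93.3% with a flank of 10 kb, 65.1% with 40 kb and 57.5% for scores at or above the list median, and 75.9% to 87.2% in a single replicate. That score limit removes most of the lower regions past slp2. The counts of regions (replicate 1: 5, replicate 2: 8, combined: 2) became 2 and 4 for the replicates when regions under 1 kb apart were joined, 3 and 3 at or above the median score, 2, 5 and 1 with a flank of 10 kb, 9 for replicate 1 and 6 for the combined list with 40 kb, and 1 for the combined list when 50% of a region had to lie in the window. Of the replicate regions, 100% (13 of 13) had at least 50% of their length in the other list, beside 85.2% of shared sequence. Genes of 2L with listed sequence in both replicates, 1788, fell to 699 for full cover, a measure added after the data were seen. The rank of the window, 5 of 430, was 3 when windows were laid to match it, 2 to 7 in a single replicate and 25 at or above the median score. No paired analysis was possible because no comparison of groups was made and the input libraries have no values here. Regions, not reads, were at hand, so an unlisted gap does not show that H3K4me1 was absent.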

Other observations

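Other wide regions of 2L with little protein-coding sequence were found after the values were seen. In replicate 1 a region of 24.8 kb with a score of 1.29 overlapped chinmo, a gene of neuronal temporal identity. Protein-coding genes took up 2.53% of its length. In replicate 2 a region of 37.1 kb with a score of 1.07 overlapped tup, an Islet-type homeobox gene. Protein-coding genes took up 47.0% of it, and 53.0% of the region over tup in replicate 1. In the combined list a region of 22.4 kb with a score of 0.81 overlapped noc, a zinc-finger gene. Protein-coding genes took up 14.1% of it. No test was made on these values.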
